A study of Mus musculus with 24 samples.

Results

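The genes described here are the aminoacyl-tRNA synthetases, the enzymes that load each transfer RNA with its amino acid. They were found by symbol: protein-coding genes named with an amino acid letter followed by ars, with or without a number, together with Eprs, Farsa and Farsb. The rule took 37 of the 17017 genes in the tables, and by name each of the 37 is a synthetase. The 20 genes without the suffix 2 make the cytosolic enzymes and the 17 with it make the mitochondrial enzymes. Gars and Kars each encode both forms from a single gene and were counted as cytosolic. Tarsl2, a threonyl synthetase with another kind of symbol, lay outside the rule.

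A synthetase first activates its amino acid with ATP and then transfers it to the matching tRNA, so the enzymes set which residue each codon receives. Animal cells keep separate enzymes for the cytosol and for the mitochondrial matrix, all of them encoded in the nucleus, and several cytosolic ones sit together in a multisynthetase complex held by scaffold proteins. Many cytosolic synthetase genes are known targets of the transcription factor ATF4, which responds to amino acid shortage and other stresses. Macrophages raise protein synthesis when they change state, and alveolar macrophages, the phagocytes of the air spaces, are known to respond to the type 2 cytokine IL-13.

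RNA was sequenced from primary alveolar macrophages of wild-type BALB/cJ mice, 20 h after stimulation with recombinant cytokines. The 8 groups of 3 libraries were untreated cells and cells given IL-13, IL-17A, IL-33, IL-13 with IL-17A, IL-33 with IL-17A, IL-33 with IL-13, or all 3 cytokines. All groups share strain, cell type and time, and the labels give neither doses nor the number of animals. The comparisons ask what the cytokines, alone and joined, do to the macrophages themselves. The labels do not state that replicate libraries stem from different animals or cultures. The p-values therefore measure only the spread between libraries, which may be technical.

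Recovered depth was 9.13 to 12.89 M reads per library, and the members had medians of 86.5 (Pars2) to 3839 (Lars2) reads per library. All 10 alveolar macrophage markers were in the tables, with a summed level of 2688 to 2995 TPM without IL-13 and 6640 to 8393 TPM with it, a difference carried mostly by Chil3, at 382 TPM in untreated cells and 5167 TPM with IL-13 alone. In the same groups Siglecf averaged 531 and 303 TPM and Itgax 1665 and 2291 TPM. Marco and Car4, also on that list, averaged 0.287 and 0.0814 TPM in untreated cells. The summed granulocyte and mast cell markers were 136 to 177 TPM without IL-13 and 67.3 to 127 TPM with it, and the epithelial ones 6.88 to 8.96 and 26.8 to 42.8 TPM, of which Cdh1 made 38.1 TPM with IL-13 alone. These 2 lists had 3 of 6 and 4 of 6 markers in the tables. The monocyte, fibroblast, endothelial and dendritic lists summed to at most 105, 6.32, 12.4 and 4.65 TPM in any library, and no lymphocyte marker was among the listed genes. The part of these other cell types in the results below was not tested, and in bulk RNA fewer cells of a type and less RNA per cell cannot be told apart. On the second principal component (8.9% of the variance) 3 libraries stood apart, replicate 2 of the triple combination most of all, then replicate 2 of IL-17A and replicate 1 of the untreated cells, so counts that lead a comparison are also given without these 3 libraries.

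The deposited unit is TPM per gene span, introns included, which cannot rank genes against each other. Levels between genes are therefore given on exonic TPM, the recovered reads per base of exon. This takes the counted reads to be exonic, which was not tested, and gene spans were 1.0 to 105.95 times the exonic length. In untreated cells the 20 cytosolic genes had exonic levels of 28.5 to 173 TPM with a median of 60.2, and the 17 mitochondrial genes 4.55 to 123 TPM with a median of 13.3. Nars, the asparaginyl enzyme, was highest at 173 ± 10.3 exonic TPM (SD, n = 3), followed by Sars (seryl) at 147 ± 2.09, Rars (arginyl) at 142 ± 2.60 and Gars (glycyl) at 132 ± 1.81. In the middle of the order Aars, Qars and Iars, at 60.5 ± 4.53, 60.5 ± 1.74 and 60.0 ± 6.87, did not differ beyond their spread. Eprs, which joins the glutamyl and prolyl enzymes in 1 protein, was the lowest cytosolic gene at 28.5 ± 2.38, and Yars (tyrosyl) was next at 29.7 ± 1.095, within the spread of Eprs. Among mitochondrial genes Lars2 (leucyl) led with 123 ± 64.6, a spread taken up at the end, then Iars2 (isoleucyl) with 51.2 ± 2.02, and Mars2 (methionyl) was lowest with 4.55 ± 0.450. The sum over the cytosolic genes was 1533 ± 48.6 exonic TPM in untreated cells and 1763 ± 3.36 with IL-13 (n = 3 each). Over the mitochondrial genes without Lars2 it was 264 ± 10.8 and 272 ± 4.21.

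With IL-13 most cytosolic synthetases rose by a small amount in the average over the 4 cytokine backgrounds in which it was added. Yars and Vars rose most, by 1.47 and 1.43 times, and the others that rose did so by 1.05 to 1.30 times. Calls were made by limma-trend at an adjusted p under 0.05 over the 13215 genes with at least 1 TPM in 3 libraries. Values given as times are ratios of mean TPM, and every log2 fold change was taken from log2(TPM + 1), where the pseudocount shrinks changes of low genes. Of the members, 36 passed that filter. Fars2, at 0.348 to 0.442 TPM over a span of 608869 bases, did not, although its exonic level was 13.8 ± 1.08 TPM.

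Averaged over the 4 backgrounds, 18 of 20 cytosolic genes rose and 1 fell with IL-13, with a median log2 fold change of 0.20, where 20% of all genes were called higher, 30.9% lower, and the median of all genes was -0.05. Of the 16 mitochondrial genes tested 8 rose and 1 fell, with a median of 0.11. Without the 3 libraries set apart above the counts were 18 and 1 cytosolic, and 8 and 1 mitochondrial. Scaling by median ratios moved the split of all calls from 2644 higher and 4079 lower to 3394 and 3421, and under it 19 cytosolic and 11 mitochondrial members rose and none fell.

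The 4 separate comparisons share no library. With IL-13 alone against untreated cells 13 cytosolic genes rose and 1 fell, and 2 mitochondrial genes rose and 1 fell (background 14.1% higher, 15.7% lower). With IL-13 and IL-17A against IL-17A 14 cytosolic genes rose and 1 fell, and 1 mitochondrial gene rose (12.2% higher, 17.6% lower). With IL-33 and IL-13 against IL-33 16 cytosolic and 2 mitochondrial genes rose (11.2% higher, 12.8% lower), though leaving out IL-33 replicate 1 or IL-33 with IL-13 replicate 2 left 10 cytosolic calls. In the triple combination against IL-33 with IL-17A 7 cytosolic and no mitochondrial genes were called (11% higher, 21.7% lower; 6 mitochondrial genes at an unadjusted p under 0.05), and without replicate 2 of the triple combination 15 cytosolic and 2 mitochondrial genes were called. The cytosolic medians in the 4 comparisons were 0.22, 0.21, 0.23 and 0.15, and the mitochondrial ones 0.11, 0.11, 0.14 and 0.07. The mitochondrial calls were few and moved with single libraries: with IL-13 alone Tars2 was among the higher and Hars2 was the lower, and leaving out IL-13 replicate 2 left none, leaving out IL-13 replicate 3 or untreated replicate 1 or 2 left 1, and leaving out replicate 2 of the triple combination, through the shared spread, gave 6. Without the 3 libraries apart the calls with IL-13 alone were Hars2 and Iars2, both lower, so no mitochondrial gene was then called higher. In that setting the cytosolic calls in the first 3 comparisons were 14, 15 and 17, and the mitochondrial calls within IL-17A and within IL-33 were 3 and 4. Within IL-17A the call was lost without IL-17A replicate 2 or replicate 2 or 3 of the joined group, and within IL-33 both calls were lost without replicate 2 or 3 of IL-33 with IL-13. Leaving out a library also changes the spread estimated for all genes. The shares of all genes called in the settings with left-out libraries are not given here, so those counts have no background beside them.

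**Figure D1:**
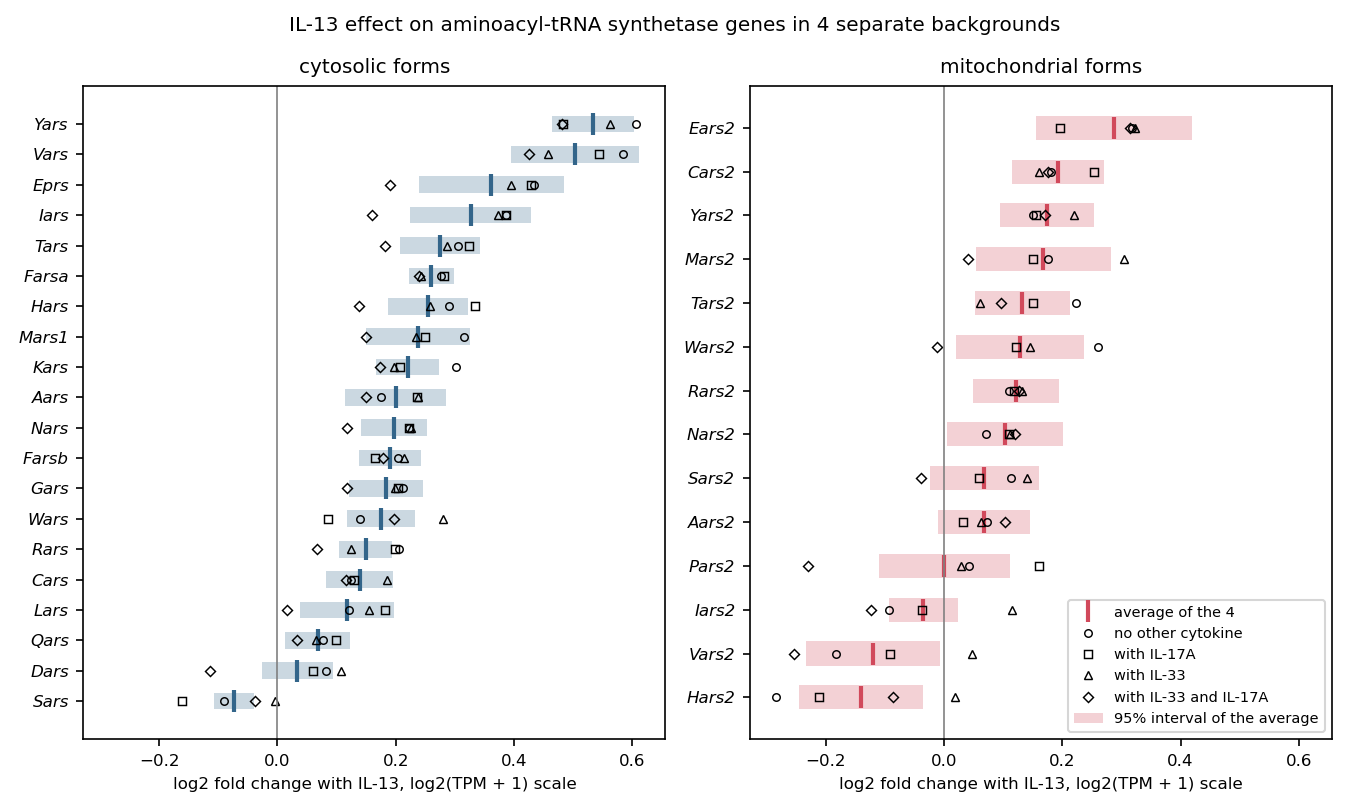
Log2 fold change with IL-13 of the synthetase genes (x axis, log2(TPM + 1) scale) in the 4 separate backgrounds (open symbols), with their average (coloured tick) and its 95% interval (band), cytosolic forms left and mitochondrial forms right. Yars and Vars lie at 0.53 and 0.50, and 18 of the 20 cytosolic genes have all 4 symbols right of 0. Lars2, with its wide interval, is not drawn, and Hars2, Vars2 and Iars2 have averages left of 0.

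Library values follow for the 6 cytosolic members with the largest calls, Yars and Vars above every mitochondrial member. Yars, the tyrosyl enzyme, which can also act as a signalling protein once cleaved, lies at chr4:129189760-129219607 on the plus strand (mm10). It stood at 16.8, 17.7 and 18.5 TPM in the untreated libraries and at 27.3, 27.8 and 27.1 TPM with IL-13 alone. Its lowest, median and highest values were 16.7, 18.4 and 19.6 TPM over the 12 libraries without IL-13, and 23.03, 26.9 and 28.5 TPM over the 12 with it. The 2 sets did not overlap, and the average log2 fold change was 0.53 ± 0.03 (SE, adjusted p = 7.59e-11). Vars, the valyl enzyme (chr17:35000987-35016322, plus strand), had 46.4, 55.6 and 51.3 TPM untreated and 75.6, 79.9 and 75.5 TPM with IL-13. Over all libraries it ran from 46.4 to 59.7 TPM (median 53.8) without IL-13 and from 62.1 to 84.9 TPM (median 79.8) with it, again with no overlap, and its log2 fold change was 0.50 ± 0.05 (SE, adjusted p = 1.05e-07).

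Eprs (chr1:185363044-185428360, plus strand) had 20.9, 24.7 and 25 TPM untreated and 32.8, 32.8 and 30.6 TPM with IL-13. Its 12 libraries with IL-13 held 23.3 to 35.3 TPM (median 32.3) and the 12 without 20.6 to 27.0 TPM (median 24.8), an overlap made by replicate 2 of the triple combination, the lowest with IL-13. The log2 fold change was 0.36 ± 0.06 (SE, adjusted p = 3.12e-05). Iars, the isoleucyl enzyme (chr13:49682100-49734267, plus strand), had 15.5, 19.6 and 19.2 TPM untreated and 23.3, 24.2 and 23.99 TPM with IL-13. It ran from 15.5 to 19.95 TPM (median 18.9) without IL-13 and from 18.2 to 24.99 TPM (median 24.03) with it, and the same library was the lowest with IL-13. Its log2 fold change was 0.33 ± 0.05 (SE, adjusted p = 1.27e-05). For both genes the comparison within IL-33 and IL-17A did not pass the test, at adjusted p = 0.225 for Eprs and 0.224 for Iars.

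Tars, the threonyl enzyme (chr15:11382301-11399665, minus strand), had 39.7, 43.9 and 43.6 TPM untreated and 52.2, 51.3 and 54.4 TPM with IL-13. Without IL-13 it ran from 39.1 to 45.5 TPM (median 42.7) and with it from 43.3 to 54.4 TPM (median 52.1), so that the sets overlapped through replicate 2 of the triple combination alone, with a log2 fold change of 0.27 ± 0.03 (SE, adjusted p = 5.98e-07). Farsa, the catalytic subunit of the phenylalanyl enzyme (chr8:84856989-84869257, plus strand), had 57.0, 61.3 and 56.8 TPM untreated and 72.2, 72.3 and 68.0 TPM with IL-13. Its sets did not overlap, at 56.8 to 61.5 TPM (median 58.8) without IL-13 and 67.5 to 74.7 TPM (median 70.6) with it, and the log2 fold change was 0.26 ± 0.02 (SE, adjusted p = 4.6e-10). Farsa had a within-group SD of 0.04 on the log2 scale, in the lowest 2.2% of tested genes, so its small change was measured with a small error. Farsb, the other subunit, rose by 0.19.

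**Figure D2:**
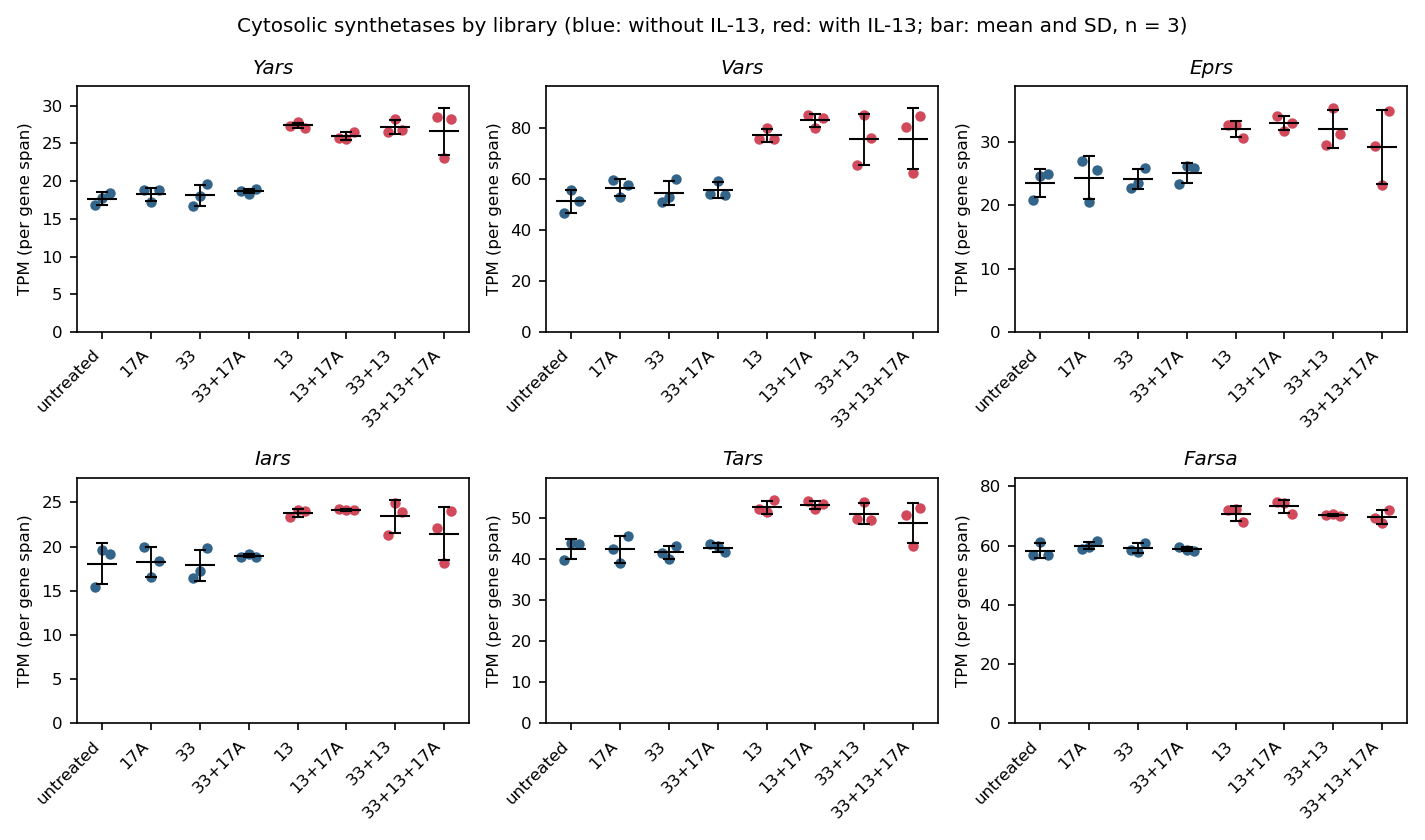
TPM per gene span (y axis, from 0) of the 6 cytosolic synthetases that changed most, in each library of the 8 groups (x axis, numbers stand for the interleukins), with the mean and SD (n = 3). For Yars, Vars and Farsa all 12 libraries with IL-13 lie above all 12 without. For Eprs, Iars and Tars replicate 2 of the triple combination, at 23.3, 18.2 and 43.3 TPM, reaches into the range without IL-13.

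The other cytosolic genes that rose had average log2 fold changes of 0.07 to 0.25. In falling order they were Hars (histidyl) at 0.25, Mars1 (methionyl) at 0.24, Kars (lysyl) at 0.22, Nars and Aars (alanyl) at 0.20, Farsb at 0.19, Gars and Wars (tryptophanyl) at 0.18, Rars at 0.15, Cars (cysteinyl) at 0.14, Lars (leucyl) at 0.12 and Qars (glutaminyl) at 0.07. The 12 libraries with IL-13 all lay above the 12 without for 5 of the 20 cytosolic genes, Farsa, Farsb, Kars, Vars and Yars, and for none of the 16 mitochondrial genes, against 6.18% of all genes. Calls in all 4 separate comparisons were made for 6 cytosolic genes, the same 5 and Tars, against 6.72% of all genes. A positive log2 fold change in all 4 was found for 18 cytosolic and 9 mitochondrial genes, against 20.4% of all genes.

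Dars and Sars did not follow the other cytosolic genes. Dars, the aspartyl enzyme, had 11.7, 13.8 and 13.5 TPM untreated and 13.8, 13.8 and 13.7 TPM with IL-13. Its libraries held 11.7 to 15.2 TPM without IL-13 and 12.3 to 14.96 TPM with it, overlapping nearly throughout, and the average log2 fold change was 0.03 (95% interval -0.03 to 0.09, adjusted p = 0.357). Without untreated replicate 1 it was 0.02, and after median-ratio scaling it was called, at 0.08 (adjusted p = 0.00184). Sars, the seryl enzyme, fell with IL-13 by 0.07 on the log2 scale (adjusted p = 7.95e-04), from 108.7 to 117.7 TPM (median 111.5) over the 12 libraries without IL-13 to 101.0 to 114.1 TPM (median 106.4) over the 12 with it. These ranges overlap, and the fall did not pass the test after median-ratio scaling (a log2 fold change of -0.02, adjusted p = 0.332). Sars was called lower with IL-13 alone (-0.09, adjusted p = 0.0433) and within IL-17A (-0.16), and had -0.0047 within IL-33 and -0.04 within both. The call with IL-13 alone was lost in 11 of the 24 settings that leave out 1 library: untreated replicate 2 or 3, IL-13 replicate 1 or 2, IL-13 with IL-17A replicate 1, IL-33 replicate 1 or 2, any replicate of IL-33 with IL-17A, or IL-33 with IL-13 replicate 3. The same call was kept in 5 of 10 other settings, and was lost with median-ratio scaling, limma-voom and no variance trend among others.

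Grouped by place in the cell, the cytosolic genes of the multisynthetase complex (Dars, Eprs, Iars, Kars, Lars, Mars1, Qars and Rars) had a median log2 fold change of 0.18, and 7 of 8 rose. The 12 cytosolic genes outside it had a median of 0.20, and 11 rose and 1 fell. This grouping was chosen after the values were seen. Of the 3 scaffold genes of the complex, Eef1e1 rose by 0.48 ± 0.04 (SE, adjusted p = 2.14e-09) from 14.4 ± 1.19 to 20.5 ± 1.11 TPM, and Aimp2 rose by 0.23 ± 0.03 (adjusted p = 9.16e-06). Aimp1 stood at 17.8 ± 1.16 TPM without IL-13 and 18.1 ± 1.01 TPM with it (SD, n = 12 each, adjusted p = 0.588).

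Among the mitochondrial genes 4 had the largest calls. Ears2, the glutamyl enzyme, whose product also serves to make glutaminyl-tRNA in mitochondria, had 2.87, 3.62 and 3.69 TPM untreated and 4.47, 4.45 and 4.44 TPM with IL-13. Over all libraries it held 2.87 to 3.84 TPM without IL-13 and 3.41 to 5.50 TPM with it, overlapping through replicate 2 of the triple combination and replicate 2 of IL-13 with IL-17A, and its average log2 fold change was 0.29 ± 0.06 (SE, adjusted p = 7.25e-04). Cars2, the cysteinyl enzyme, had 6.42, 6.53 and 6.25 TPM untreated and 6.70, 7.90 and 7.61 TPM with IL-13. It ran from 5.53 to 6.77 TPM without IL-13 and from 6.46 to 7.90 TPM with it, with an average log2 fold change of 0.19 ± 0.04 (SE, adjusted p = 2.08e-04). All 12 libraries with IL-13 lay above the median without it, 6.27 TPM.

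Yars2, the tyrosyl enzyme, had 34.0, 39.3 and 41.7 TPM untreated and 41.9, 43.7 and 41.9 TPM with IL-13. It ran from 33.8 to 41.7 TPM without IL-13 and from 40.2 to 46.2 TPM with it, an overlap of 3 libraries with IL-13, and rose by 0.17 ± 0.04 (SE, adjusted p = 6.79e-04). Mars2, the methionyl enzyme, had 12, 14.98 and 13.8 TPM untreated and 15.1, 15.6 and 15.5 TPM with IL-13. Its ranges of 11.4 to 15.95 TPM and 12.9 to 17.9 TPM overlapped over most of their length, and the log2 fold change was 0.17 ± 0.05 (SE, adjusted p = 0.0145). Tars2, Wars2 and Rars2 rose by 0.12 to 0.13. Hars2, the histidyl enzyme, fell by 0.14 (adjusted p = 0.0249), and was not called after median-ratio scaling. Nars2, Aars2, Sars2, Pars2, Iars2, Lars2 and Vars2 did not pass the test, with log2 fold changes of -0.12 to 0.10. Pars2, the prolyl enzyme, was nearest 0 (interval -0.11 to 0.11), at 19.7, 17.3 and 22.7 TPM untreated and 20.3, 21.7 and 19.3 TPM with IL-13.

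Per library, the median of the cytosolic genes lay 0.03 to 0.30 above the untreated mean (log2) with IL-13 and between -0.07 and 0.06 without it. The lowest with IL-13 was replicate 2 of the triple combination, in which the median of all genes was also low, at -0.18. Relative to the median of all genes in the same library the cytosolic medians were 0.20 to 0.30 with IL-13 and -0.01 to 0.03 without it, and the ranges did not overlap. The mitochondrial medians relative to all genes were 0.11 to 0.21 with IL-13 and -0.04 to 0.06 without it, again with no overlap.

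**Figure D3:**
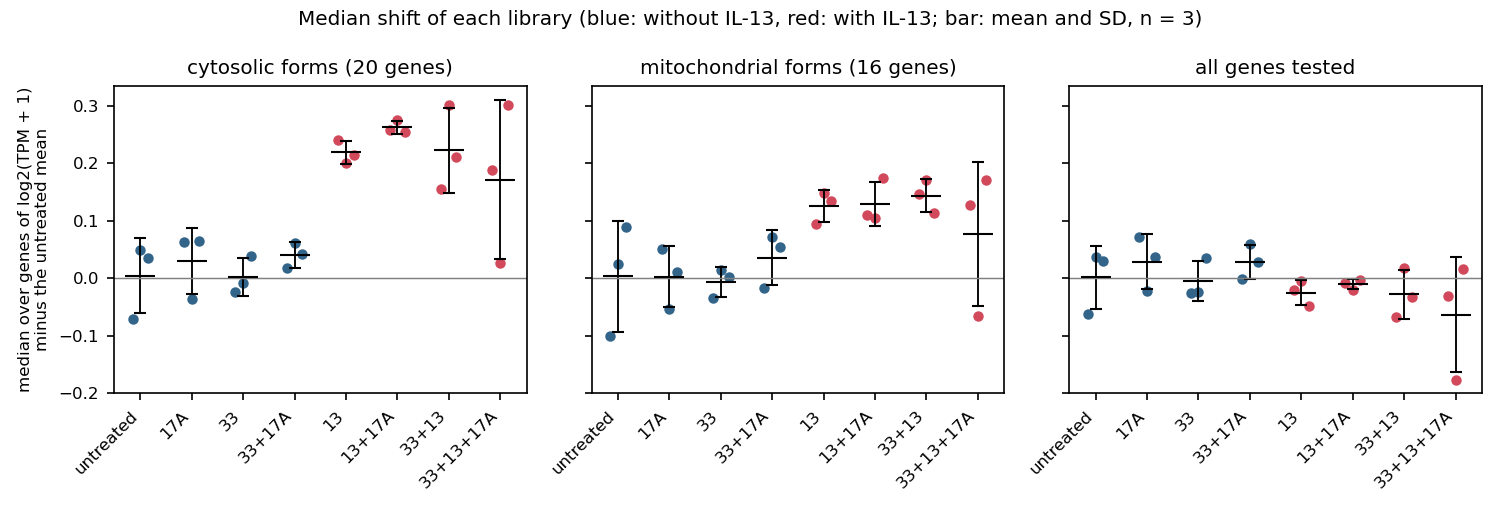
Median over genes of log2(TPM + 1) minus the untreated mean (y axis), 1 point per library, by group (x axis), for the cytosolic forms, the mitochondrial forms and all genes tested, with the mean and SD of each group (n = 3). The cytosolic medians with IL-13 run up to 0.30, the mitochondrial ones up to 0.17, and the all-gene medians with IL-13 stay at or below 0.02, with replicate 2 of the triple combination lowest in each panel with IL-13.

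Set by amino acid, 15 pairs of a cytosolic and a mitochondrial gene were compared, with Eprs entering for both glutamate and proline. The cytosolic form had the larger average log2 fold change in 13 pairs, both forms were positive in 10, and the signs were opposite in 5. For tyrosine the forms rose by 0.53 and 0.17 and for threonine by 0.27 and 0.13, while for arginine (0.15 and 0.12) and tryptophan (0.18 and 0.13) they lay within 0.05 of each other. For valine Vars rose by 0.50 and Vars2 had -0.12 (adjusted p = 0.0727), and for histidine Hars rose by 0.25 and Hars2 fell by 0.14. On the log2(TPM + 1) scale cysteine and serine were the pairs in which the mitochondrial value was larger. The pseudocount shrinks the changes of low genes, which several mitochondrial forms are. As ratios of mean TPM Wars2 rose more than Wars, by 1.158 against 1.135 times. Eprs and Ears2, at 1.299 and 1.287 times, and Nars and Nars2, at 1.148 and 1.137 times, lay close together. The difference between forms was not tested within pairs. Hars and Hars2 lie head to head on opposite strands and share 198 bases, and since the handling of strand is not given, reads in the shared bases cannot be told apart. The same holds for Mars1 and Ddit3 (68 bases), Farsb and Sgpp2 (2315), Cars2 and Naxd (984), Iars2 and Rab3gap2 (2034), Wars and Wdr25 (544), Ears2 and Ubfd1 (89) and Yars and C77080 (30).

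**Figure D4:**
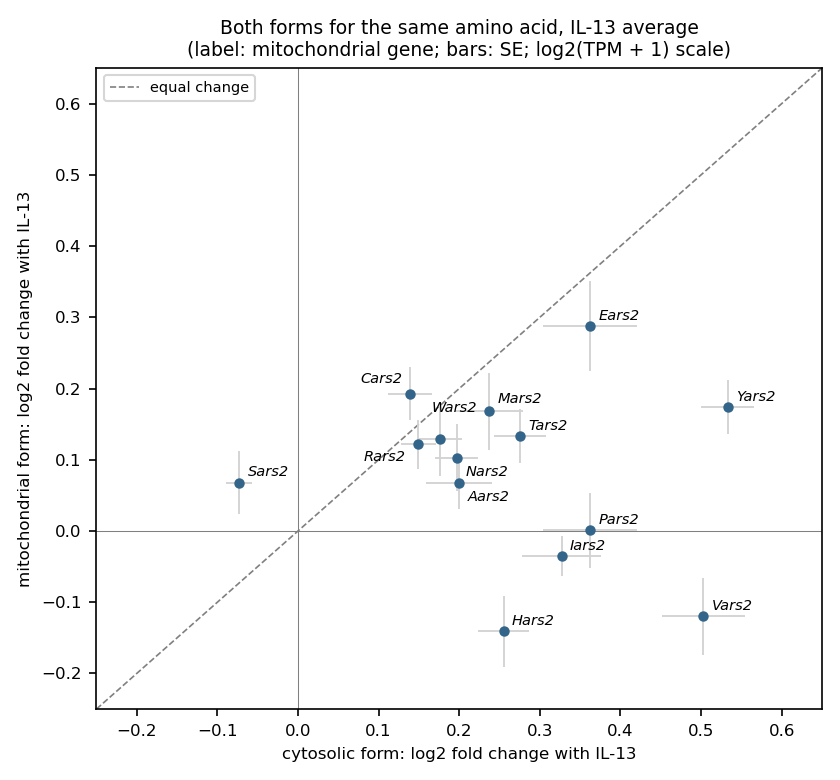
Average log2 fold change with IL-13 of the cytosolic form (x axis) and the mitochondrial form (y axis) for the same amino acid, with SE bars, for the pairs compared other than Lars and Lars2. Points below the dashed line of equal change have the larger cytosolic value: Vars2 and Yars2 lie far below it, at -0.12 and 0.17 against 0.50 and 0.53 for their partners, and Sars2 and Cars2 lie above it.

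IL-33 and IL-17A without IL-13 moved no synthetase past the test. With limma-trend 0 of 36 members were called for IL-33, for IL-17A or for both together against untreated cells, where no gene of the 13215 was called either (background 0%; with IL-17A 469 genes had an unadjusted p under 0.05), and 1, 0 and 1 members had an unadjusted p under 0.05. With limma-voom on recovered reads the counts were also 0. The 95% intervals of the cytosolic genes lay within -0.22 to 0.31 for IL-33 and -0.20 to 0.36 for IL-17A, so changes like that of Yars with IL-13 lie outside them. These limits are the lowest and highest ends over the 20 genes, and the intervals of single genes were narrower (median SE 0.059 in both comparisons). Whether the interval of each gene leaves out its own change with IL-13 was not tested. Adding IL-17A to IL-13, over both backgrounds, also gave no calls and no member at an unadjusted p under 0.05. In that comparison no gene of the 13215 was called either (background 0%), and 608 genes had an unadjusted p under 0.05. No interaction of IL-17A or IL-33 with IL-13 passed the test for any member, with lowest adjusted p-values of 0.875 and 0.0921, and 1 and 4 members were at an unadjusted p under 0.05. For IL-17A no gene passed, and for IL-33 the interaction was called higher for 1.46% and lower for 2.11% of all genes.

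Adding IL-33 in the presence of IL-13 gave 1 call over both backgrounds, Sars, where 2.53% of all genes were called higher and 4.48% lower. Sars had 104.5, 101.1 and 106.7 TPM with IL-13 and 106.7, 114.1 and 109.5 TPM with IL-33 and IL-13. It had 101.8, 106.2 and 101.0 TPM with IL-13 and IL-17A, and 110.8, 106.0 and 109.9 TPM in the triple combination. The values with IL-33 lay near those of the untreated libraries, 108.7, 113.4 and 110.4 TPM, and the rise was 0.08 ± 0.02 (SE, adjusted p = 0.041). This call was lost in 14 of the 24 settings that leave out 1 library: untreated replicate 3, replicates 1 and 2 of IL-13 and of IL-33, replicates 1 and 3 of IL-13 with IL-17A and of the triple combination, replicates 2 and 3 of IL-33 with IL-13, and each replicate of IL-33 with IL-17A. Rars was lower in the triple combination, at 54.5, 53.6 and 59.1 TPM, than with IL-13 and IL-17A, at 60.5, 64.6 and 62.5 TPM, with no overlap. That difference was -0.16 ± 0.04 (SE, adjusted p = 0.0425, 1.15% of all genes called higher and 2.4% lower). It was lost in 15 of the 24 settings that leave out 1 library, namely every replicate of IL-13, of IL-17A and of IL-13 with IL-17A, replicates 1 and 2 of the triple combination, replicate 2 of untreated cells and of IL-33, and replicate 3 of IL-33 with IL-17A and of IL-33 with IL-13. It was also lost with median-ratio scaling, limma-voom, no variance trend, and without the 3 libraries apart. Wars, the tryptophanyl enzyme and a known interferon target, had a value of 0.09 with IL-33 (adjusted p = 0.206), which became 0.12 (adjusted p = 0.0377) without replicate 2 of the triple combination. This rise was also called with median-ratio scaling (0.121, adjusted p = 0.00502) and limma-voom (0.131, adjusted p = 0.00578). Exonic lengths (adjusted p = 0.0369) and leaving out the 3 libraries apart (adjusted p = 0.0201) gave the call too. In the other settings, each other left-out library among them, it was not called. The interaction of IL-33 with IL-13 was called for Wars with median-ratio scaling, limma-voom and without the 3 libraries apart.

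Promoter sequence was looked at because members moved together with IL-13. RefSeq windows of GRCm38.p6, from 250 bases before to 50 after the start, were matched for 27 of 37 members, 13 cytosolic and 14 mitochondrial. The 9-base pattern TGATGNAAN, searched on both strands, is the core of the composite element bound by ATF4 with a C/EBP partner. It was found in 5 members, all cytosolic (Aars, Gars, Iars, Tars and Yars), and in 3.95% of 32851 promoters. The sites are shown in capitals within 30 bases of the gene's own strand, 5′ to 3′, so that the shared core, or its reverse complement, can be read across genes:
Yars: cgagctcagcTGATGCAACccgacgggact
Iars: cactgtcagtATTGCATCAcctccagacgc
Tars: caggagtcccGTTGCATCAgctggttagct
Aars: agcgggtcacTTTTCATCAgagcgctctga
Gars: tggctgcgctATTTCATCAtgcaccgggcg

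The coordinates that follow are those of the 30 bases shown for each gene, not of the site alone. Positions count from the RefSeq start of the window, which need not be the gene start given above. Yars carries the pattern in the forward direction within chr4:129189896-129189925, 4 to 12 bases into the transcript, and Iars in reverse within chr13:49682126-49682155, 7 to 15 bases into it. Tars has it 16 to 8 bases before the start (chr15:11399655-11399684, minus strand) and Gars 31 to 23 bases before it (chr6:55037960-55037989). Aars has a site 9 to 17 bases after the start (chr8:111033840-111033869). These 5 genes rose by 0.18 to 0.53 with IL-13, where the median of all 20 cytosolic genes was 0.20. The other 8 matched cytosolic windows do not hold the pattern, that of Farsb among them, which rose by 0.19. Whether the pattern goes with the rise was not tested. The E-box CACGTG, the site of Myc and its relatives, was found in Aars, Ears2, Farsb, Iars and Tars, and in 7.15% of all promoters. The STAT6-type pattern, TTC and GAA parted by 4 bases, was found in Aars2 alone among the matched members, and in 6.95% of all promoters. The motifs were chosen after the values were seen, and a match describes letters in a window, not binding.

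Genes that work beside the synthetases were read from lists in the IL-13 average, where 20% of all genes rose, 30.9% fell and the median was -0.05. Of 20 tested genes of the amino acid response 16 rose and 1 fell (median 0.26). Psat1 and Phgdh, enzymes of serine synthesis, rose by 1.05 and 0.92, and Mthfd2, a mitochondrial folate enzyme, by 0.77. Atf5, a relative of ATF4, rose by 0.74, and Atf4 itself, singled out after its values were seen, by 0.29, from 1085 ± 21.8 to 1325 ± 52.1 TPM. Psat1 more than doubled, from 10.2 ± 0.660 to 22.3 ± 1.20 TPM (SD, n = 12 each, adjusted p = 4.65e-16). Cebpg, a C/EBP partner of ATF4, was the gene that fell, by 0.15. Cebpb, another C/EBP gene of the list, rose by 0.45, from 3686 ± 115 to 5044 ± 207 TPM. Of 9 genes of mTORC1 and Myc 4 rose and 1 fell (median -0.01). Myc rose by 1.40, Eif4e, Rps6kb1 and Rheb rose by 0.23, 0.36 and 0.10, and Tsc1 fell by 0.22. Mtor, Rptor, Max and Tsc2 did not pass the test, at -0.05 to -0.01.

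Genes of amino acid transport moved in both directions: of 14 transporter genes 6 rose and 4 fell (median -0.01). Slc1a5, a glutamine carrier, rose by 0.47, Slc7a11, the cystine carrier, by 0.70 and its partner Slc3a2 by 0.15. Slc36a1, a lysosomal exporter of small amino acids, fell by 0.64. Of 34 genes for making, trimming, modifying and exporting tRNA 10 rose and 7 fell (median 0.01). Xpot, the tRNA exporter, rose by 0.38, Elac2, which trims the 3′ end, by 0.36 and Trmt61a, a tRNA methyltransferase, by 0.40. Maf1, the repressor of RNA polymerase III, fell by 0.28. Of 8 genes for editing and release of tRNA 3 rose and 3 fell (median -0.05), a list that also held Tarsl2, the synthetase outside the symbol rule, at -0.10 (adjusted p = 0.0968). Ptrh2, a peptidyl-tRNA hydrolase, rose by 0.26 and Aarsd1, an alanyl editing protein, by 0.21, while Dtd1, which removes D-amino acids from tRNA, fell by 0.19.

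Among the users of charged tRNA, 4 of 7 cytosolic elongation genes rose and 1 fell (median 0.14). They were Eif5a, at 0.54, and the Eef1b2, Eef1d and Eef1g subunits of the exchange factor, at 0.14, 0.27 and 0.25. Eef1a1, which carries charged tRNA to the ribosome, stood at 3288 ± 89.3 TPM without IL-13 and 3277 ± 69.5 TPM with it (adjusted p = 0.785). In mitochondria 48 of 78 ribosomal protein genes rose and 5 fell (median 0.12), Mrpl12 by 0.32 and Mrpl47 by 0.35 among those that rose, and 4 of 10 translation factors rose, Tufm by 0.30, Gfm1 by 0.17, Tsfm by 0.18 and Gfm2 by 0.11. Of the 4 genes that finish glutaminyl-tRNA or formylate the initiator there, Gatc rose by 0.13.

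Lars2 stood apart from all other members in its spread. Its within-group SD was 0.92 on the log2 scale, above 97.4% of tested genes, whose median was 0.12. It had 22.8, 37.6 and 67.4 TPM in untreated libraries and 16.2, 29.4 and 34.4 TPM with IL-13. With IL-33 it had 136, 100.3 and 14.5 TPM, the highest and the lowest values of all 24 libraries within 1 group. Its IL-13 average was -0.04 with a 95% interval of -0.78 to 0.70 (adjusted p = 0.939), so neither a rise nor a fall of the size seen in other members could be detected. By the pattern over the 24 libraries the genes most like it were CT010467.2, a pseudogene, CT010467.1, annotated as rRNA, and mt-Rnr2, the large mitochondrial rRNA. CT010467.1 had 29090, 21940 and 4460 TPM in the same 3 IL-33 libraries, and 9515, 10460 and 13030 TPM in untreated ones. The part of rRNA content in the Lars2 values was not tested.

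**Figure D5:**
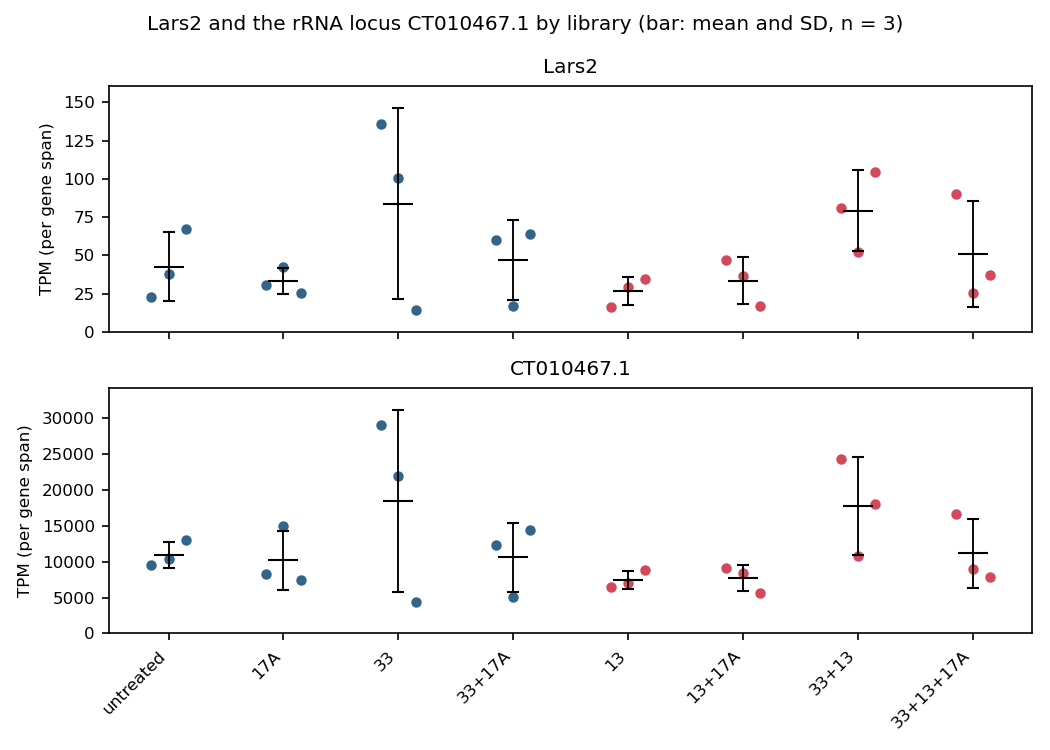
TPM per gene span (y axes, from 0) of Lars2 (top) and of the rRNA locus CT010467.1 (bottom) in each library by group (x axis, numbers stand for the interleukins), with the mean and SD (n = 3). IL-33 replicates 1 and 2 are the highest for Lars2 among the libraries without IL-13 (136 and 100.3 TPM) and also for CT010467.1 (29090 and 21940 TPM), and IL-33 replicate 3 is the lowest in both.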

How the data were processed

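Each of the 24 libraries had 1 deposited table of genes with a TPM value and a gene length; the authors' length equals the gene span, introns included. The submitters' processing notes name STAR and the build mm10; of versions, counting and strand nothing is given in the sources used here. Dividing TPM times span by its step in each library gave recovered reads, of which, up to 20 reads, 89.9% to 91.4% were whole within 0.05. The test was limma-trend (limma 3.58.1, R 4.3.3) on log2(TPM + 1), genes at 1 TPM or more in 3 libraries, 8 group means, 16 residual degrees of freedom, Benjamini-Hochberg over 13215 genes. Exonic lengths are unions of GENCODE M21 exons. Library pairs within groups differed beyond sampling noise (index of dispersion 1.43 to 21.74). The fit was tested on simulated data.

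Library values are given for the 6 cytosolic and 4 mitochondrial genes with the largest called IL-13 average, members called for IL-33 or IL-17A, the member of each class nearest 0, and Lars2, chosen, like Wars, after its values were seen; of each list, up to 4 called genes with the smallest p, others being chosen after their values were seen. Members, lists and motifs were chosen with earlier results of these data known. Some items, counted in the totals, are not reported here. Figures used Python 3.11.15. Alternatives were the pseudocount, filters, median-ratio scaling, limma-voom, no trend, groups compared alone and left-out libraries. Exonic lengths and leaving out the 3 libraries apart were added after seeing the data.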

Additional observations from a re-analysis of the deposited data

How the results depend on the processing

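Of 652 recomputed counts of called members 575 stayed within 1.5 times the reported count. They include comparisons with 0 members called and settings that left out a library outside the comparison. Their share therefore says little about the IL-13 counts. Of 936 recomputed values of the named members 909 kept their side of the threshold, 17 lost and 10 gained a call, and no called value changed sign. Members that were not called could change sign, as Pars2 did, at -0.022 to 0.049 in the IL-13 average. Mitochondrial members called with IL-13 alone (3 reported) were 6 after median-ratio scaling, 7 with limma-voom on recovered reads, 1 with the groups compared alone and 0 to 6 without single replicates. Within IL-17A (1) they were 2, 3, 0 and 0 to 2, and 3 without the 3 libraries apart on the second component. Within IL-33 (2) they were 5 after median-ratio scaling, 1 with a pseudocount of 0.1, with no filter, with no variance trend and without the 4 libraries with title numbers over 24, 4 without the 3 apart, 0 with exonic lengths or the groups alone, and 0 to 3 without single replicates. Cytosolic calls within IL-33 (16) were 10 to 17 without single replicates. In the triple combination cytosolic calls (7) were 17 after median-ratio scaling and with limma-voom, 2 without the 4 late-numbered libraries or with the groups alone, 15 without the 3 apart, 11 with exonic lengths and 5 to 15 without single replicates; mitochondrial calls (0) were 5, 5, 2 without the 3 apart, 2 with exonic lengths and 0 to 2. For IL-33 with IL-13 (1) calls were 2 with no filter, median-ratio scaling, limma-voom or exonic lengths, 0 with no trend, 3 without the 3 apart and 0 to 2 without single replicates. For the interaction of IL-33 and IL-13 (0) they were 1 after median-ratio scaling or with exonic lengths, 2 with limma-voom, 3 without the 3 apart and 0 to 1. The causes were not tested, and the shares of all genes called in these settings are not given beside the counts. No paired analysis was possible because the labels give no replicate numbers that run across groups. Mitochondrial members rest on fewer reads (median 243 per library against 1017 for cytosolic ones).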
